A study of Rattus norvegicus with 6 samples.

Results

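The messenger RNAs of 9 proteins that carry out or govern the fusion of secretory granules were followed across 6 rat insulinoma lines. The genes were taken by their symbols: the target-membrane SNAREs Stx1a, Stx4 and Snap25, the vesicle SNAREs Vamp2 and Vamp3, the tomosyn gene Stxbp5, the complexin genes Cplx1 and Cplx2, and the disassembly ATPase gene Nsf. Each symbol matched 1 row, so 9 of the 32900 features of the table were used, and all 9 were among the 15579 genes with enough reads to be tested. Between PWS INS-1 lines and control INS-1 lines, 0 of these 9 genes differed at an adjusted p-value of 0.05 by limma, edgeR or DESeq2.

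All 6 lines derive from INS-1(832/13)::mCherry, a rat β-cell tumour line that secretes insulin and carries a human INS-neoR transgene and a mouse Ins2-mCherry transgene. The 3 control lines (5-9, 2 and 16) lack the imprinted Prader-Willi syndrome (PWS) domain on the maternal allele, which is normally silent there. The 3 PWS lines (3, 19-1 and 19-4) lack it on both alleles, so both groups share the maternal deletion and differ in the active paternal copy. Lines 2, 16, 3 and 19 were all isolated from line 5-9 after a further transfection, with an EGFP vector for lines 2 and 16 and with Cas9 and guides for the PWS lines. The PWS group stands for 2 isolates, since 19-1 and 19-4 were both subcloned from line 19, and line 3 has another proximal breakpoint. The cells were grown in 7.5 mM glucose, and 1 library of total RNA was sequenced per line, so the spread between lines holds clone, culture and library differences together.

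SNARE proteins drive the last step of insulin release. A vesicle SNARE on the granule zips together with a syntaxin and a SNAP25 protein on the plasma membrane, and the resulting helical bundle pulls both membranes into one. Tomosyns occupy the target-membrane SNAREs without promoting fusion, complexins clamp and then aid the assembled bundle until calcium arrives, and NSF with its SNAP adaptors takes spent bundles apart so that the SNAREs can be used again.

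RefSeq gives a promoter window (250 bases before the annotated start and 50 after it, build GRCr8) for 7 of the 9 genes, and none was found there for Snap25 and Vamp3. All 7 windows held the Sp1 GC box GGGCGG on at least 1 strand, against 33.1% of all 33469 windows and 41.8% of the 21851 windows of protein-coding genes. Their GC content had a median of 68.7% and ran from 54.0% (Cplx2) to 69.3% (Vamp2), while the median was 55.0% over protein-coding genes. The TATA sequence TATAAA was in 0 of the 7 windows, on either strand, and stood in 14.2% of all windows. CCAAT, on either strand, was in 4 of the 7 windows (Stx1a, Stx4, Cplx2 and Nsf), against 37.5% of all windows. These matches describe letters in a window and are not binding sites. The 250 bases before the start are shown for a vesicle SNARE, the tomosyn and a target-membrane SNARE, 5′ to 3′ on the gene's strand, with the GC boxes in capitals (CCGCCC is the same box on the other strand). Vamp2 lies at chr10:54292539-54292788 on the plus strand, Stxbp5 at chr1:6155529-6155778 on the minus strand and Stx1a at chr12:27306472-27306721 on the minus strand.
Vamp2: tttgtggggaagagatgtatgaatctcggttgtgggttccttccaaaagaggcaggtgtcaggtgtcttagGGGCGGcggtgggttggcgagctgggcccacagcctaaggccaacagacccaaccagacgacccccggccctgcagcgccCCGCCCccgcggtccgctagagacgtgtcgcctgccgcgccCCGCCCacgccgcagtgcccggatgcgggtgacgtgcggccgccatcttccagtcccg
Stxbp5: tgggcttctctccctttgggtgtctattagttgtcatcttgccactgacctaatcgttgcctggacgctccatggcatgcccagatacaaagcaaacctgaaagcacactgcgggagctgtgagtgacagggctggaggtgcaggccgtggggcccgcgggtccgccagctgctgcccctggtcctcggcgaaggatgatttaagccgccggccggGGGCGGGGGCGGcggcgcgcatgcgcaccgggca
Stx1a: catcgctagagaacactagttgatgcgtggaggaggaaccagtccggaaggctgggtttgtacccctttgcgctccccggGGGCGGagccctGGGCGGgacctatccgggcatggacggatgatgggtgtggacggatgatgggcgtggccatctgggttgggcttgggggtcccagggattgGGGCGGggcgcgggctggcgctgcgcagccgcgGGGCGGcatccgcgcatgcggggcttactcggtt
The stretch held 3 GC boxes for Vamp2, 2 directly adjacent ones for Stxbp5, and 4 for Stx1a.

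The deposited values are normalized counts, that is reads assigned to a gene divided by the size factor of the library. The counts recovered from them summed to 26016478 to 36084261 per line when a read with several alignments, or overlapping several genes, is counted at each. They summed to 17530149 to 23022637 when reads of both kinds are left out. The deletion labels held in the reads: Mkrn3, a gene of the deleted domain, was at 77.9, 89.0 and 81.1 in control lines 5-9, 2 and 16 and at 0 in each PWS line, where 3 reads would be 2.73 to 3.59 normalized counts. Snurf, of the same domain, had 3160 to 3992 in the control lines and at most 3.64 in the PWS lines. All 17 β-cell markers found were expressed in every line, and 0 of them passed the test. Their summed level was 666082 to 732582 in the control lines and 384041 to 639576 in the PWS lines, with line 19-4 lowest. Of 15 markers found for other islet, exocrine and stromal cells, 11 had at most 3 reads in every line, Sst, Prss1, Irx2 and Ptprc were at 0 throughout, and the sum was 14.7 to 51.3 in the control lines and 42.9 to 143 in the PWS lines, highest in line 19-4, where Gcg made up most of it. The part of these marker levels in the values given next was not tested.

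Every one of the 9 genes was well covered. The fewest reads of any of them in any line was 446, where counting error alone is 4.74%. Between 94.5% (Cplx2) and 100% (Cplx1) of their reads remained when reads with several alignments or overlapping several genes are left out. The plot of values by line shows each gene in each library. In bulk RNA, fewer expressing cells and less RNA per cell cannot be told apart.

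**Figure D1:**
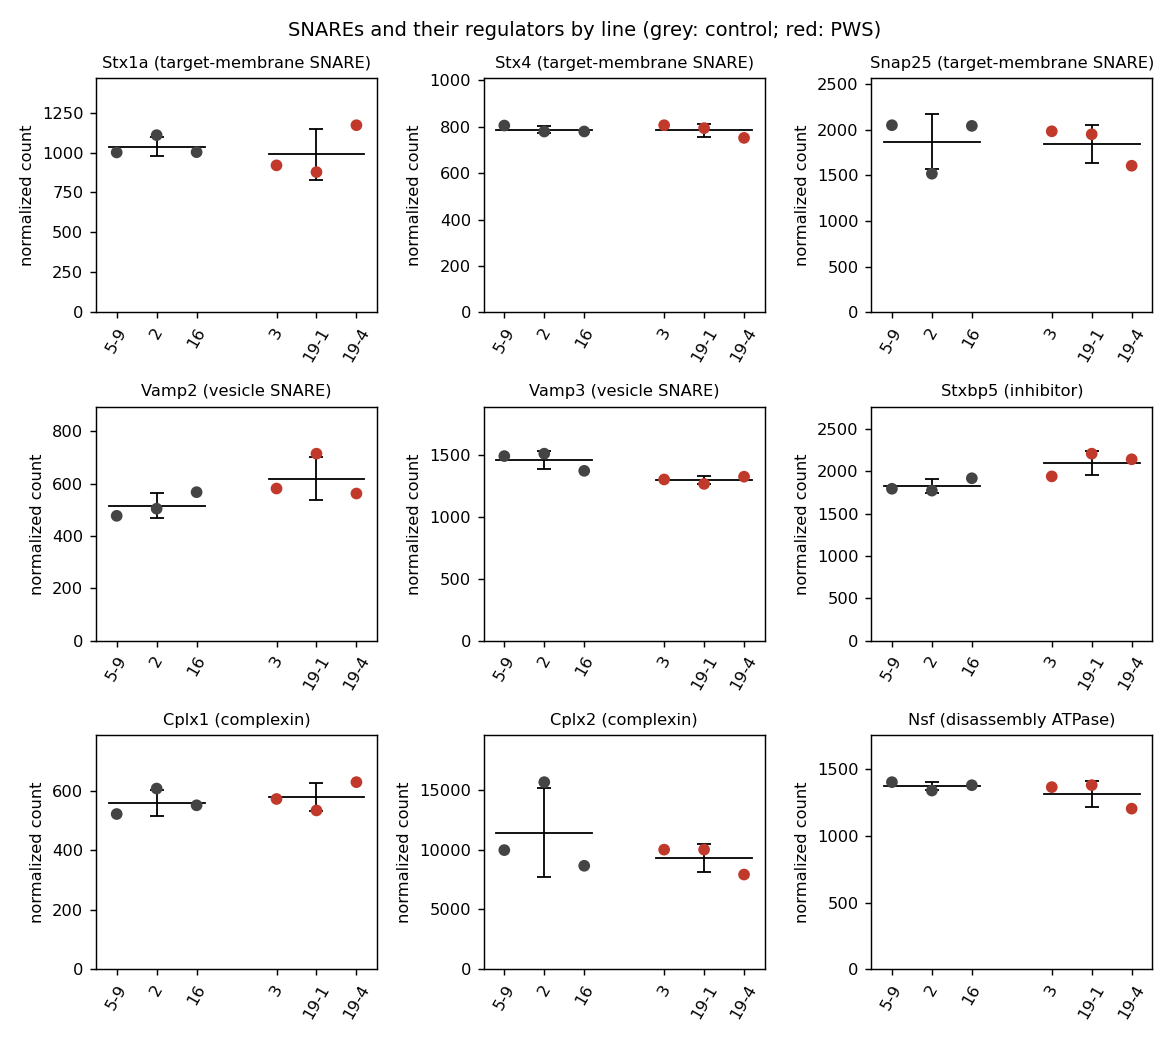
Normalized counts (vertical axis, from 0) of the 9 SNAREs and regulators in each line (horizontal axis), with control lines in grey and PWS lines in red, the horizontal bar at the group mean and the whisker at 1 SD (n = 3 lines per group). The groups separate without overlap for Vamp3, lower in the PWS lines, and for Stxbp5, higher in the PWS lines, and overlap for the other 7 genes.

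Among the target-membrane SNAREs, none separated the groups. Stx1a encodes syntaxin-1A, the plasma membrane syntaxin of the fast phase of insulin release. Its normalized count was 1001, 1109 and 1002 in control lines 5-9, 2 and 16, and 920, 878 and 1171 in PWS lines 3, 19-1 and 19-4. The PWS lines thus held both the highest value and the 2 lowest. The group means were 1037 ± 61.9 and 989.5 ± 159 (SD, n = 3), a log2 fold change of -0.078 (SE 0.12, 95% interval -0.34 to 0.19, limma adjusted p = 0.844). The subclones 19-1 and 19-4 were at opposite ends of the 6 lines, and the fold change was -0.21 without line 19-4 and 0.0024 without line 19-1.

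Stx4 encodes syntaxin-4, a plasma membrane syntaxin that also serves insulin release and the surface delivery of glucose transporters in other tissues. Its values were 805, 779 and 780 in the control lines and 807, 794 and 752 in the PWS lines. The whole range of the 6 lines was narrow, and their order mixed the groups. The means were 788 ± 14.8 and 784 ± 28.6 (SD, n = 3), with a log2 fold change of -0.0076 (SE 0.073, 95% interval -0.18 to 0.16, limma adjusted p = 0.981). The SD of log2 Stx4 over the 6 lines, 0.038, was at percentile 0.783 of all tested genes, so few tested genes varied as little. The sign of so small a difference was not stable, and with RSEM it was 0.038.

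Snap25 encodes the SNARE that contributes a pair of helices to the bundle and sits on the plasma membrane through its fatty acids. It had 2047, 1516 and 2040 normalized counts in the control lines and 1981, 1948 and 1604 in the PWS lines. Control line 2 and PWS line 19-4 were low, and the other 4 lines lay close together. The means were 1868 ± 304 and 1844 ± 209 (SD, n = 3), a log2 fold change of -0.011 (SE 0.13, 95% interval -0.32 to 0.30, limma adjusted p = 0.984). Leaving out line 2 gave -0.15 and leaving out line 19-4 gave 0.086, and the sign also turned without control line 5-9 (0.062) or 16 (0.059).

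The 2 vesicle SNAREs differed in opposite directions on average, and neither difference passed the test. Vamp2, synaptobrevin-2, is the main granule SNARE of regulated insulin release. It had 478, 505 and 568 normalized counts in the control lines and 582, 715 and 563 in the PWS lines. Lines 3 and 19-1 were above every control line, and line 19-4 was just under control line 16, so the groups overlapped. The means were 517 ± 46.4 and 619.9 ± 83.0 (SD, n = 3), with a log2 fold change of 0.26, which is 19.5% higher (SE 0.12, 95% interval -0.014 to 0.53, limma adjusted p = 0.463). The fold change was 0.15 without line 19-1, and it was 0.35 when RSEM, which shares reads among transcripts, did the counting. In the RSEM values the groups did not overlap, with 357 to 428 in the control lines and 454 to 559 in the PWS lines.

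Vamp3, cellubrevin, is a close relative of Vamp2 that acts in endosome recycling and can stand in for it in granule fusion. It had 1488, 1507 and 1369 normalized counts in the control lines and 1300, 1264 and 1322 in the PWS lines. Each PWS line was under each control line. The means were 1455 ± 74.8 and 1295 ± 29.3 (SD, n = 3), 0.891-fold, with a log2 fold change of -0.17 (SE 0.070, 95% interval -0.33 to -0.0057, limma adjusted p = 0.431). With 1 line left out at a time the fold change stayed between -0.21 and -0.14.

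Stxbp5 encodes tomosyn-1, which carries a SNARE motif of its own and holds syntaxin and SNAP25 in bundles that lack the vesicle SNARE, and is known as a brake on exocytosis. It had 1794, 1772 and 1918 normalized counts in the control lines and 1940, 2207 and 2141 in the PWS lines. Each PWS line was above each control line, narrowly so for line 3 against control line 16, and both subclones of line 19 were further up. In the RSEM values line 3, at 1655, was under control line 16, at 1696, so the groups overlapped there. The means were 1828 ± 78.7 and 2096 ± 139 (SD, n = 3), 1.15-fold, with a log2 fold change of 0.20 (SE 0.075, 95% interval 0.024 to 0.37). This was the lowest p-value of the 9 genes, 0.0299 in limma, and it did not hold after adjustment (adjusted p = 0.395 in limma, 0.375 in edgeR and 0.406 in DESeq2).

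Cplx1 encodes complexin-1, a small protein that binds along the assembled bundle. Its values were 521, 607 and 551 in the control lines and 572, 533 and 628 in the PWS lines, with the groups interleaved. The means were 559.5 ± 43.5 and 578 ± 47.8 (SD, n = 3), a log2 fold change of 0.046 (SE 0.0997, 95% interval -0.18 to 0.27, limma adjusted p = 0.903).

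Cplx2 encodes complexin-2, its paralogue. It was the most variable of the 9 genes, with an SD of 0.34 on the log2 scale over the 6 lines, at percentile 79.8 of all tested genes. It had 9958, 15636 and 8648 normalized counts in the control lines and 9997, 10001 and 7914 in the PWS lines. A single library, control line 2, stood far above the others, and line 19-4 was lowest. The means were 11414 ± 3715 and 9304 ± 1204 (SD, n = 3), 0.838-fold, with a log2 fold change of -0.26 (SE 0.20, 95% interval -0.72 to 0.21, limma adjusted p = 0.676). Without control line 2 the fold change was -0.0048, and without control line 16 it was -0.43.

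Nsf encodes the ATPase that pulls spent SNARE bundles apart. It had 1402, 1339 and 1379 normalized counts in the control lines and 1365, 1380 and 1204 in the PWS lines. Line 19-4 was the 1 low library, and the other 5 lay together. The means were 1374 ± 31.9 and 1316 ± 97.7 (SD, n = 3), a log2 fold change of -0.064 (SE 0.077, 95% interval -0.24 to 0.11, limma adjusted p = 0.800), and without line 19-4 it was -0.0011.

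Of the 9 genes, 0 were called in limma, where 0.257% of all tested genes were (40 of 15579), 0 in edgeR (0.205% of tested genes) and 0 in DESeq2 (1.46%). At an unadjusted p-value under 0.05, limma and edgeR gave 2 of the 9 genes, Vamp3 and Stxbp5, and DESeq2 gave 1, Stxbp5. Vamp2, with an unadjusted limma p-value of 0.0599, was the next. The 2 genes are 22.2% in limma, where 11.3% of all tested genes were under the same limit, and the shares of tested genes were 11.4% in edgeR and 10.4% in DESeq2. With the subclones averaged, the unadjusted limma p-values were 0.068 for Vamp3, 0.076 for Stxbp5 and 0.061 for Vamp2. With RSEM they were 0.075, 0.069 and 0.016 for the same genes. Groups did not overlap for 2 of the 9 genes (22.2%), against 17.4% of all tested genes, so that count is close to the background. On average 3 of the genes were higher and 6 lower in the PWS lines, and their median log2 fold change was -0.011, beside -0.0028 over all tested genes.

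The precision bounds what could have been missed. The 95% interval of each of the 9 genes lay within 1 log2 unit of no difference, as it did for 84.4% of all tested genes, and 7 of the 9 intervals lay within 0.5. Vamp2 and Cplx2 were the exceptions to the narrower bound, reaching 0.53 and -0.72. The median half-width was 0.23 for the 9 genes and 0.28 for all tested genes. The plot of fold changes sets these intervals beside the other methods and the fits with a line left out.

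**Figure D2:**
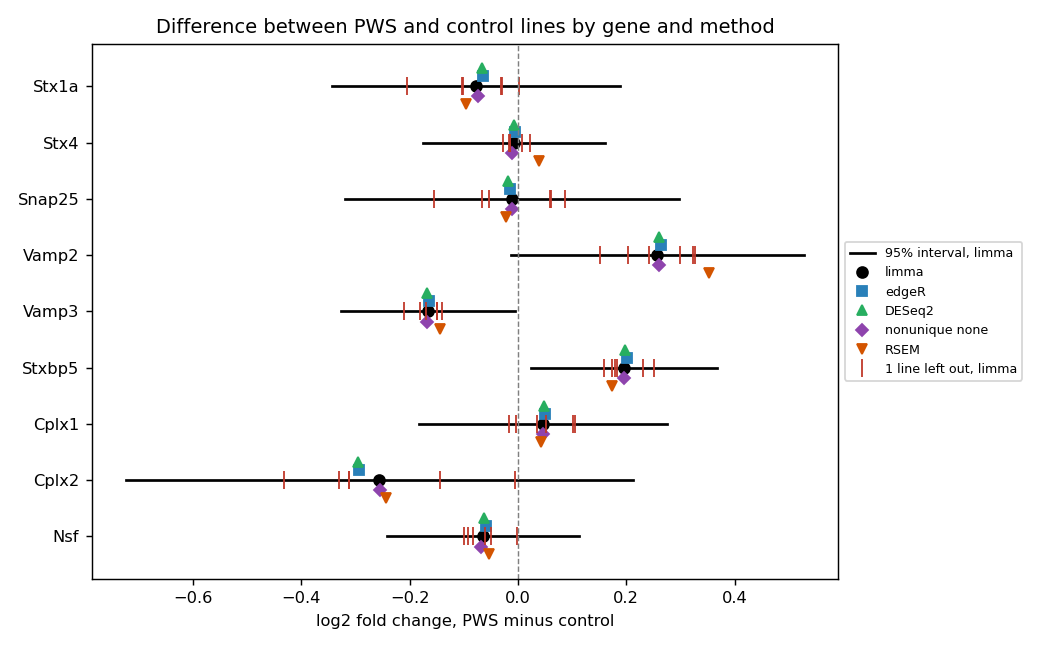
Log2 fold change of PWS over control lines (horizontal axis) for each of the 9 genes (vertical axis), with the limma estimate as a black point and its 95% interval as a line, other tools and countings as coloured symbols, and the fits that leave out 1 of the 6 lines as red ticks. All symbols of Vamp2 and Stxbp5 lie above 0 and all those of Vamp3, Cplx2 and Nsf below it, while those of Stx1a, Stx4, Snap25 and Cplx1 fall on both sides.

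The 9 genes did not move as a block within a line. Relative to the control mean, their median on the log2 scale was -0.026, -0.016 and -0.015 in control lines 5-9, 2 and 16, and 0.034, 0.0068 and -0.067 in PWS lines 3, 19-1 and 19-4. In line 19-1 they ran from -0.24 for Stx1a to 0.47 for Vamp2, and in line 19-4 from -0.48 for Cplx2 to 0.23 for Stxbp5. The median absolute difference of the 9 genes was 0.079 to 0.14 between control lines and 0.049 to 0.32 between lines of different groups. Between PWS lines it was lowest, at 0.040, for lines 3 and 19-1, and highest, at 0.24, for the subclones 19-1 and 19-4. Over all tested genes the order was the same, 0.15 for lines 3 and 19-1 and 0.17 for the subclones, so it is not particular to these 9 genes. Over all tested genes and all pairs of lines such differences were 0.12 to 0.23.

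Ratios of paralogues within a library do not depend on its scaling. Transcript lengths were not used here, so the level of a ratio is not read as a ratio of molecules, and only its difference between groups is. The log2 ratio of Vamp3 to Vamp2 was 1.64, 1.58 and 1.27 in the control lines and 1.16, 0.82 and 1.23 in the PWS lines. Each PWS line was under each control line, with control line 16 and PWS line 19-4 close together. The means were 1.49 ± 0.20 and 1.07 ± 0.22 (SD, n = 3), a difference of -0.42, or 0.745-fold (two-sided exact permutation p = 0.1, which is the smallest that 3 against 3 lines allow, adjusted p = 0.4 over 4 ratios). It was between -0.54 and -0.30 with 1 line left out.

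The ratios of the syntaxins and of the complexins overlapped between the groups. The log2 ratio of Stx4 to Stx1a was -0.39 ± 0.10 in the control lines and -0.32 ± 0.27 in the PWS lines (difference 0.071, exact permutation p = 0.7). For the complexins Cplx2 and Cplx1 it was 4.30 ± 0.36 and 4.00 ± 0.31 (difference -0.30, exact permutation p = 0.4). Such a p says only that 3 lines against 3 did not separate the ratios. With 1 line left out, the difference ran from -0.019 to 0.23 for the syntaxins and from -0.47 to -0.11 for the complexins.

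**Figure D3:**
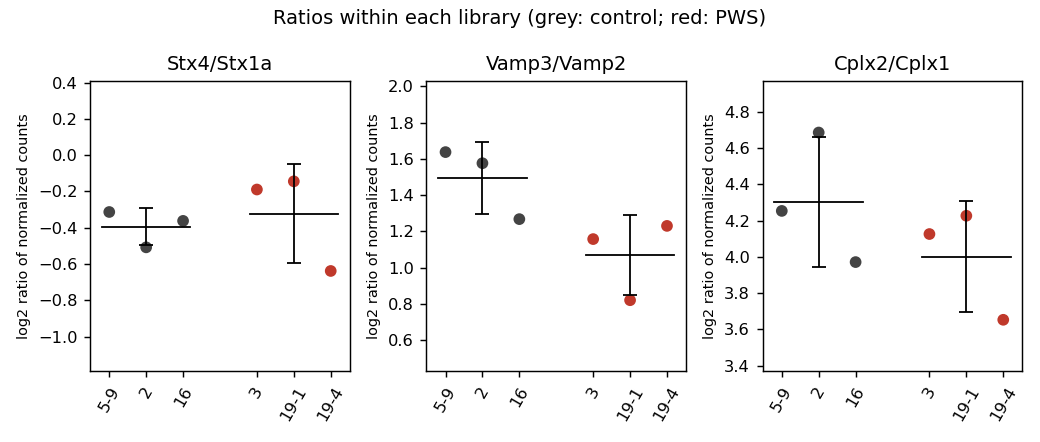
Log2 ratios of the normalized counts of 2 genes in the same library (vertical axis, not from 0, with the same span in each panel) for each line (horizontal axis), control lines in grey and PWS lines in red, with the group mean and 1 SD (n = 3 lines per group). Of the 3 ratios drawn, the groups do not overlap for Vamp3 over Vamp2, with the control lines at 1.27 to 1.64 and the PWS lines at 0.82 to 1.23.

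The rest of the machinery was read from 4 lists with 62 tested genes in all, and 0 of them differed at an adjusted p-value of 0.05 by limma, edgeR or DESeq2. At an unadjusted p-value under 0.05 there were 4 in limma (2 higher and 2 lower in the PWS lines), 4 in edgeR and 5 in DESeq2, and groups did not overlap for 5. Over all tested genes the shares were 11.3% under that p-value in limma and 17.4% without overlap, so both counts of the 62 lie below the background. Apart from the genes with the most extreme fold changes of each list, Rab3c, Exoc8 and Stx12 are named because their groups did not overlap, a choice made after their values were seen. The plot by list shows medians near 0 in each list, with single genes from -0.92 (Stx11) to 0.48 (Stxbp5l).

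**Figure D4:**
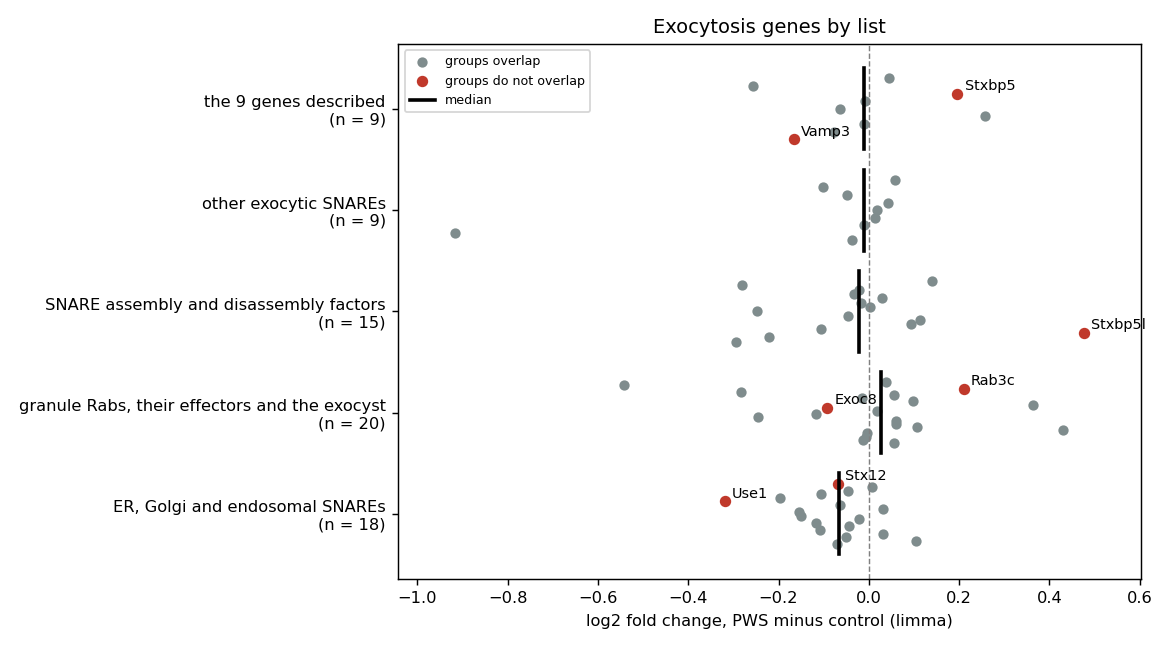
Log2 fold change of PWS over control lines in limma (horizontal axis) for the 9 genes and for 4 lists of other exocytosis and trafficking genes (vertical axis, spread within a list for legibility), with red points where the groups do not overlap and black bars at the medians. The medians run from -0.066 to 0.028, and Stxbp5l, at 0.48, is the non-overlapping gene furthest above 0.

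Of the assembly and disassembly factors, 15 of 21 were tested, 6 higher and 9 lower on average, with a median of -0.021. The highest fold change was that of the other tomosyn gene. Stxbp5l encodes tomosyn-2, the paralogue of Stxbp5, and had 377, 431 and 471 normalized counts in the control lines and 492, 640 and 656 in the PWS lines. The groups did not overlap (log2 fold change 0.48, SE 0.14, limma adjusted p = 0.295, DESeq2 adjusted p = 0.0872). In these counts, though not for Stxbp5 with RSEM, both tomosyn genes were higher in each PWS line than in any control line, and neither passed the test. Stxbp4 was next at 0.14, with overlapping groups (SE 0.13, limma adjusted p = 0.731). The lowest of the list were the C2-domain genes Doc2a (-0.28) and Doc2g (-0.29), both with overlapping groups and under 100 normalized counts in every line. The NSF adaptors Napa, Napb and Napg, which recruit NSF to spent bundles, were at -0.032, 0.094 and 0.030, and are named as the partners of Nsf, a choice also made after their values were seen.

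Of the other exocytic SNAREs, 9 of 11 were tested, 4 higher and 5 lower on average, with a median of -0.0098, and groups overlapped for all 9. Snap23 and Stx19 were not analysed here. The highest were Vamp1 (0.057) and Snap47 (0.042), and Snap29 was at -0.10. Stx11, with 3.64 to 17.4 normalized counts, had the lowest fold change, -0.92 (SE 0.43, limma adjusted p = 0.469).

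For granule Rabs, their effectors and the exocyst, 20 rows were tested, 11 higher and 9 lower on average, with a median of 0.028. Sytl4, granuphilin, a Rab27 effector that docks insulin granules beside syntaxin-1A, had 2819, 2086 and 3813 normalized counts in the control lines and 2325, 1682 and 1859 in the PWS lines. The groups overlapped at control line 2 and PWS line 3, and the log2 fold change was -0.54 (SE 0.21, limma adjusted p = 0.396). Exoc6, a subunit of the exocyst tether, was at 0.36, with 4835 in line 19-4 and 2528 to 3034 in the other 5 lines. Rab3b was at -0.28, with 1296 in control line 2 and 639 to 839 elsewhere. Rab3c (0.21) and Exoc8 (-0.092) had groups that did not overlap. The row of Sytl2 with the highest fold change of the list, 0.43, had under 10 normalized counts per line. Of its reads, 0% remained when reads with several alignments or overlapping several genes are left out.

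SNAREs of the endoplasmic reticulum, Golgi and endosomes do not serve granule fusion itself. Of these, 18 of 19 were tested, 4 higher and 14 lower on average, with a median of -0.066. Use1, a SNARE of transport back to the endoplasmic reticulum, had 645, 604 and 599 normalized counts in the control lines and 551, 533 and 408 in the PWS lines, without overlap (log2 fold change -0.32, SE 0.12, limma adjusted p = 0.406). Stx5, the Golgi syntaxin, was at -0.20 with overlapping groups, and Stx12 at -0.069 without overlap. Stx6 (0.10) and Stx7 (0.032) were the highest. Of the reads of Stx7, 14.3% remained when reads with several alignments or overlapping several genes are left out.

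For the 3 of the 9 genes that varied most over the 6 lines, the tested genes with the nearest profile were found by the root mean square difference of log2 values centred on each gene's own mean, over 6 lines and 11896 candidate genes. Cplx2 was followed most closely by Galt (0.051), Tdrd7 (0.063) and Fbxw10 (0.066), all highest in control line 2. Vamp2 was followed by Myo1d (0.025), Dpy19l3 (0.031) and Slc29a4 (0.035), all highest in line 19-1. Snap25 was followed by Kcnip3 (0.038), Apool (0.042) and Coro6 (0.042), all lowest in control line 2. These likenesses are a description of 6 libraries and carry no test.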

How the data were processed

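Total RNA of 3 control and 3 PWS INS-1 lines was sequenced after rRNA depletion. The authors trimmed reads with cutadapt and aligned them with STAR 2.7.0e to the Ensembl rat genome with custom features. They counted them with HTSeq 0.11.2 (nonunique all or nonunique none) or RSEM 1.3.1. Nonunique all counts a read with several alignments, or overlapping several genes, at each, and nonunique none leaves such reads out. The deposited values are a signal, counts divided by DESeq2 size factors. The deposited fold changes and p-values were not used.

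Reads were recovered by dividing each HTSeq column by its smallest value, and 100% of values were whole within 0.01. Nonunique all values were compared as log2(normalized count + 1) by limma 3.58.1 (eBayes with trend, R 4.3.3) over 15579 genes with a mean of at least 5, adjusted by Benjamini-Hochberg, at 0.05. edgeR 4.0.16 (quasi-likelihood) and DESeq2 1.42.0 were run on the recovered reads. Ratios were compared by two-sided exact permutation, adjusted over 4, of which 1 is not reported here, and some genes were left out of the lists. The limma, edgeR and DESeq2 fits were tested on simulated data.

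Other alternatives were pseudocounts of 0.5 and 5, any read or a mean of 50, TMM, no trend, nonunique none, RSEM, leaving out each line, averaging the subclones, the line number as a block, and an adjusted p-value of 0.1. The 9 genes and the lists were chosen with earlier results of these data known. From each list, genes past the threshold in any tool and the 2 highest and 2 lowest fold changes were named. Promoter sequences are RefSeq's (GRCr8), another build than the authors'.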

Additional observations from a re-analysis of the deposited data

How the results depend on the processing

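The number of the 9 genes called was 0 in each of 19 alternatives, as was the number of other exocytosis genes called. The alternative with an adjusted p-value of 0.1 was run with limma alone, and Stxbp5l, at 0.0872 in DESeq2, would pass that limit there, while the lowest DESeq2 value of the 9 genes was 0.406. The number of all genes called, 40, was 9 with a mean of at least 50, 228 with DESeq2, 16 with nonunique none and 12 with RSEM, and 33 to 55 with a line left out. The direction of Vamp2, Vamp3, Stxbp5, Cplx2 and Nsf was kept in 18 of 18 alternatives, though Cplx2 without control line 2 (-0.0048) and Nsf without line 19-4 (-0.0011) were near 0. Stx4 was at 0.038 with RSEM and 0.0030 with the subclones averaged, and Snap25 at 0.020 with the subclones averaged. With a line left out, Stx4 ran from -0.028 to 0.022, Snap25 from -0.15 to 0.086, Cplx1 from -0.016 to 0.11 and Stx1a from -0.21 to 0.0024. The cause of these turns was not tested.

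Control and PWS lines share only a number in the labels: deviations of same-numbered lines correlated at 0.0035, 0.047 and 0.0051, so they were not treated as pairs. With the replicate block, 36 genes and 0 of the 9 were called. No block was used for the ratios. With the subclones 19-1 and 19-4 averaged, so that 2 PWS isolates stood against 3 control lines, 35 genes and 0 of the 9 were called. Counting error was at most 4.74% for any of the 9 genes in any line.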
